A study of Schistocerca gregaria with 20 samples.

Results

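The 13 transcripts described here were abundant in the young appendage buds of the desert locust Schistocerca gregaria and scarce in older appendages, in the pleuropodia and in the hind legs alike. They are 13 of the 12988 transcripts of the expression matrix (0.10%). A transcript was included when its lowest level in the 4 libraries of days 4 and 5 was at least 10 RPKM (the number of reads scaled to transcript length and library size) and its highest level in the 6 libraries of days 10, 11 and 12 was at most 0.25 times that lowest level. The transcripts were thus chosen by their measured RPKM at days 4, 5, 10, 11 and 12, and the levels at these days are given as a description with no test. The transcripts carry identifiers of the locust embryonic transcriptome, and 0 of the 13 identifiers occur in the named lists used here. The RefSeq gene table of the species was searched only for these identifiers and not by sequence. Their absence from it therefore does not tell whether the transcripts have a RefSeq gene. Neither a name nor a role is given for them.

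The pleuropodia are glandular appendages of the first abdominal segment of insect embryos. They start as buds that resemble leg buds, and their gland cells later stop dividing, become polyploid and secrete. The hind legs of the same embryos keep growing, form segments and muscles and lay down cuticle.

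Pleuropodia were compared with hind legs, the third thoracic pair, dissected from embryos of equal age at days 4, 5, 6, 7, 8, 8-9, 10, 11, 12 and 13 of incubation at 30 °C, with no other treatment. Each of the 20 libraries is the mRNA of many appendages of 1 tissue and stage, so no stage has a replicate. The libraries of day 8-9 came from another sequencing centre in both tissues. Depth was 15186075 to 36027338 reads in pleuropodia and 27890837 to 36884141 reads in legs, lowest at day 8-9 in both. The tissue labels were checked on dac, a leg patterning gene, which reached at most 3.31 RPKM in pleuropodia, against at least 9.98 RPKM in legs, and on the Hox gene abd-A, which stood at 17.2 RPKM in pleuropodia and 0.127 RPKM in legs at day 4.

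The legs were the tissue that kept the set small. The same rule applied to pleuropodia alone took 897 transcripts, and applied to legs alone it took 27, of which 20 also met it in pleuropodia alone and 13 met it over both tissues together. On TMM-scaled RPKM (trimmed mean of M-values, which sets the bulk of transcripts level between libraries) it took 409 in pleuropodia alone and 24 in legs alone. The last transcript inside the rule was SgreTa0004621, whose highest late level was 0.244 times its lowest early level, and the nearest one outside was SgreTa0015384 at 0.256 times. SgreTa0004152 missed the level limit with an early minimum of 9.82 RPKM. Leaving out the leg library of day 5 brought the number to 23, and leaving out any other single library of the rule gave 13 to 18.

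In pleuropodia of later days other transcripts took a growing part of the reads. The 77 transcripts listed by the study as most abundant in the secreting organ, a list chosen on these samples, made up 0.555% of the reads of pleuropodia at day 4 and 40.7% at day 13, against 0.565% and 0.806% in legs. With TMM-scaled RPKM 9 of the 13 transcripts still met the rule, while SgreTa0003416, SgreTa0003478, SgreTa0004621 and SgreTa0013753 kept 0.310, 0.340, 0.262 and 0.386 of their lowest early level. The part of that list in the falls was not tested. The TMM factor, by which levels are divided, fell late in legs too. It was 1.20, 1.23, 0.819 and 0.555 in legs at days 10, 11, 12 and 13. In pleuropodia it was 0.784, 0.705, 0.636 and 0.572 at these days. Unscaled levels of days 12 and 13 thus lie below the scaled ones in both tissues. In such samples fewer cells of a type and less RNA per cell cannot be told apart.

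**Figure D1:**
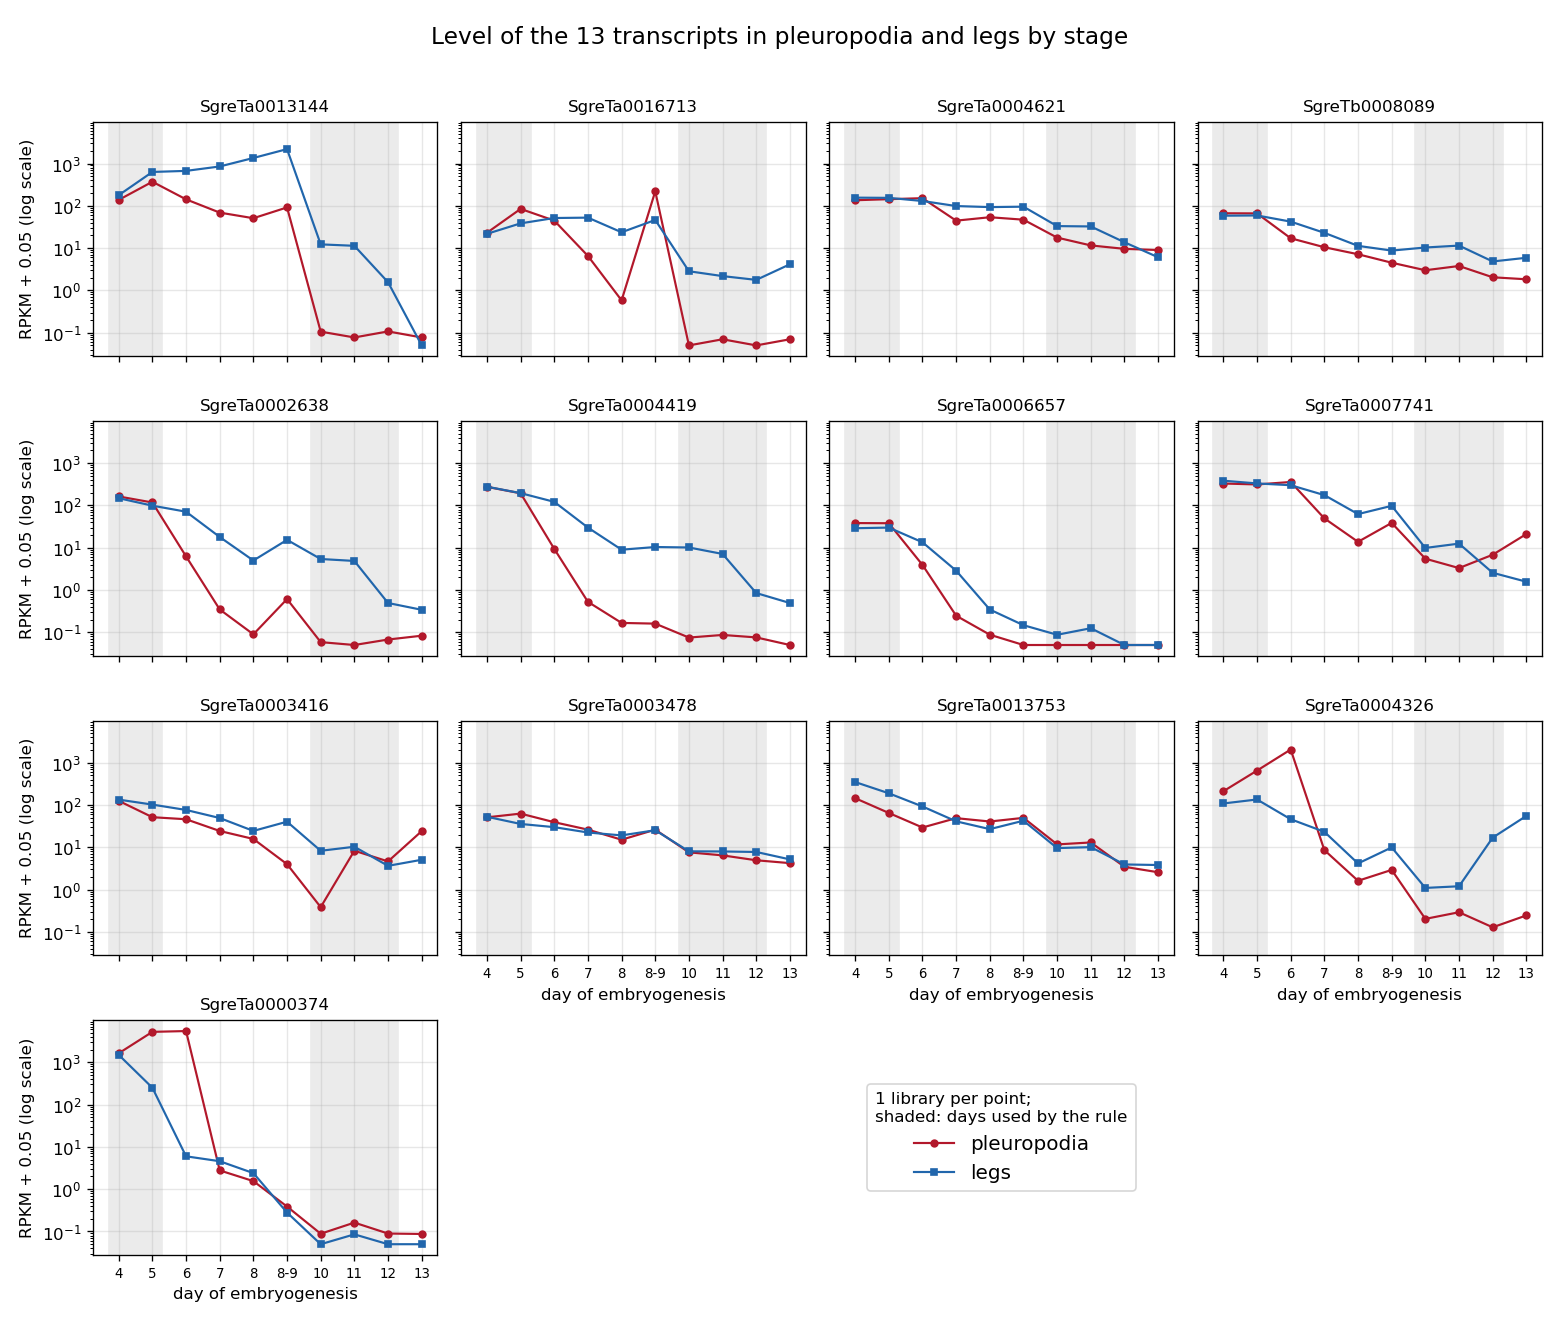
Level of each of the 13 transcripts (RPKM + 0.05, logarithmic axis) against the day of embryogenesis in pleuropodia (circles) and legs (squares), with 1 library per point and the days used by the rule shaded. SgreTa0013144 climbed to 2193 RPKM in legs at day 8-9 before it dropped, and SgreTa0000374 and SgreTa0004326 peaked in pleuropodia at day 6.

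Together the 13 transcripts took 0.567%, 1.08% and 1.84% of the reads of pleuropodia at days 4, 5 and 6, and 0.0550% at day 7. In legs they took 0.556%, 0.424%, 0.283% and 0.199% at the same days. Later they took 0.194% of the reads of legs at day 8, 0.312% at day 8-9 and 0.0196% at day 10. A few transcripts carried these sums. At day 6 SgreTa0004326 gave 462885 and SgreTa0000374 gave 153884 of the 663621 reads in pleuropodia, and without both the order of the tissues turned, with 0.130% in pleuropodia and 0.254% in legs. In legs SgreTa0013144 gave 53202 of the 71248 reads at day 8 and 65631 of the 86966 reads at day 8-9, and without it the share of legs was 0.107% at day 7, 0.0492% at day 8 and 0.0765% at day 8-9. These sums without single transcripts were chosen after seeing the data. At days 10, 11 and 12 the share was 0.00599% to 0.0100% in pleuropodia and 0.0179% to 0.0198% in legs.

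**Figure D2:**
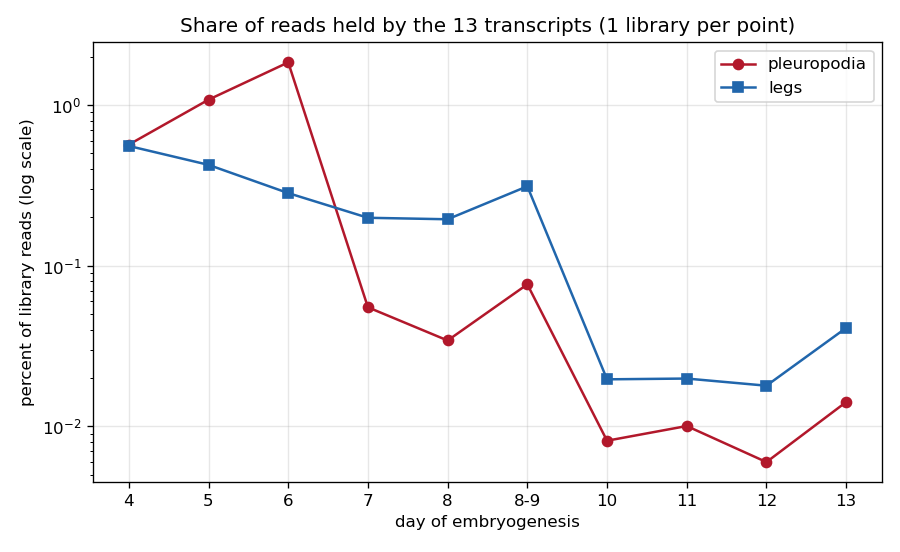
Percent of the reads of a library held by the 13 transcripts (logarithmic axis) by day of embryogenesis, in pleuropodia (circles) and legs (squares), 1 library per point. Pleuropodia stood above legs at day 6, with 1.84% against 0.283%, and below them at day 7, with 0.0550% against 0.199%, but without SgreTa0004326 and SgreTa0000374 they stood below legs at day 6 too, with 0.130% against 0.254%.

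The day of fall was taken as the stage from which a transcript stayed at or below 50% of its own mean of days 4 and 5 up to day 12. In pleuropodia the fall came at day 6 for 5 transcripts, at day 7 for 7 and at day 10 for 1. In legs it came at day 6 for 4, at day 7 for 5 and at day 10 for 4. Pleuropodia were earlier for 6 transcripts, level with legs for 5 and later for 2. On TMM-scaled RPKM they were earlier for 5, level for 5 and later for 3. The order is a description of single libraries, since each stage was sequenced once.

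When the day was interpolated between stages, with day 8-9 left out, pleuropodia came first for 11 of the 13 and legs for 2. The interpolation used unscaled RPKM and was made for the 13 only, so no share over other transcripts stands beside it. The median distance was -0.576 days (pleuropodia minus legs), with a range of -2.66 to 1.47 days, and for 9 transcripts pleuropodia were earlier by more than 0.5 days. By stages, 46.2% of the 13 fell earlier in pleuropodia, 38.5% at the same stage and 15.4% later. Of the 183 other transcripts that were abundant at days 4 and 5 and had fallen in both tissues by day 10, 74.3% fell earlier in pleuropodia, 24.6% at the same stage and 1.09% later.

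**Figure D3:**
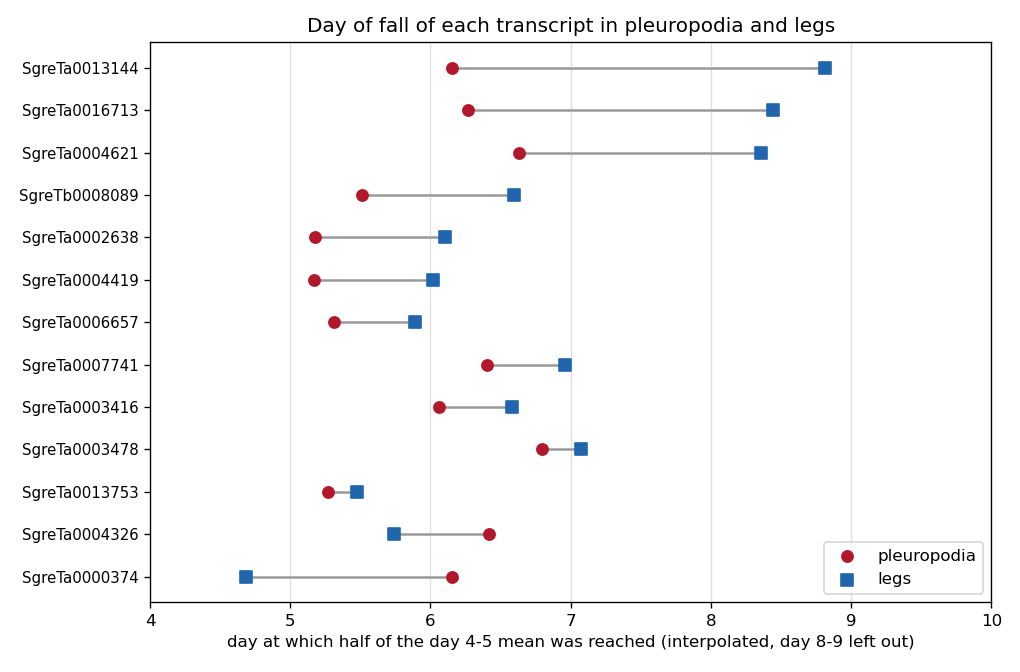
Day at which each transcript reached 50% of its mean of days 4 and 5 (interpolated between stages without day 8-9) in pleuropodia (circles) and legs (squares). The distance ran from -2.66 days (pleuropodia minus legs) for SgreTa0013144 to 1.47 days for SgreTa0000374, and legs came first only for SgreTa0000374 and SgreTa0004326.

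Both transcripts that fell later in pleuropodia first climbed there. Over the 10 stages in order, SgreTa0000374 (778 bases) stood at 1635, 5256, 5490.1, 2.73, 1.5, 0.339, 0.0385, 0.112, 0.0394 and 0.0374 RPKM in pleuropodia. In legs it stood at 1501, 251, 5.94, 4.54, 2.35, 0.230, 0, 0.0355, 0 and 0 RPKM. The tissues were within 1.09-fold at day 4, 924-fold apart at day 6 and again within 1.66-fold at day 7. Its level in pleuropodia at day 6 was 2011 times that of day 7, which was the steepest step between these days among the 13.

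SgreTa0004326 (6262 bases, the longest) also climbed up to day 6 in pleuropodia, at 212, 652, 2052, 8.53, 1.56, 2.87, 0.153, 0.241, 0.0783 and 0.195 RPKM. In legs it stood at 109, 135, 46.1, 23.2, 4.10, 9.89, 1.05, 1.15, 16.9 and 55.2 RPKM. Legs were lowest at days 10 and 11, after which the level came back. At day 6 pleuropodia were 44.5-fold higher, and at day 7 legs were 2.72-fold higher. SgreTa0000374 and SgreTa0004326 were the only 2 of the 13 that were 2-fold or more higher in pleuropodia at day 6, where 13.5% of all transcripts with at least 1 RPKM in either tissue were so, and 6 of the 13 were 2-fold or more lower, against 12.8% of all.

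The opposite course, a rise in legs, was that of SgreTa0013144. In pleuropodia it stood at 138, 371, 142, 69.1, 50.9, 91.6, 0.0558, 0.0271, 0.0571 and 0.0271 RPKM. In legs it stood at 178, 632, 670.0, 852, 1353, 2193, 12.2, 11.3, 1.51 and 0 RPKM. Legs thus reached 12.3-fold the pleuropodia at day 7 and 26.6-fold at day 8, and the level then dropped in both tissues between day 8-9 and day 10. The libraries of days 10 and 11 held 2 and 1 reads of it in pleuropodia, against 474 and 438 reads in legs, and no read was left in legs at day 13.

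SgreTa0016713 also outlasted day 8 in legs. It stood at 23.0, 84.5, 44.6, 6.48, 0.531, 220.2, 0, 0.0198, 0 and 0.0198 RPKM in pleuropodia, against 21.7, 38.4, 51.4, 52.5, 23.6, 46.3, 2.78, 2.13, 1.72 and 4.09 RPKM in legs. The pleuropodia had lost it by day 8, with 28 reads, and their library of day 8-9 held 4910 reads. That value has an exact 95% Poisson interval of 214 to 226 RPKM, which covers counting error only. At day 8-9 paired reads were counted as single reads, so the interval can be too narrow. The value stands apart from its neighbours and comes from the other sequencing centre, whose part in it was not tested. It alone puts the fall of this transcript in pleuropodia at day 10, level with legs, and without day 8-9 the fall lay at day 7.

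SgreTa0004621 kept a plateau between its early and late levels. In pleuropodia it stood at 135, 144, 152, 44.5, 53.7, 46.9, 17.7, 11.5, 9.55 and 8.96 RPKM. In legs it stood at 156, 154, 130.0, 98.7, 93.2, 95.4, 33.1, 32.5, 13.7 and 6.02 RPKM. The plateau of days 7 to 8-9 lay at 31.9% to 38.5% of the early mean in pleuropodia and 60.1% to 63.6% in legs, which places the fall at day 7 in pleuropodia and at day 10 in legs.

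SgreTa0002638 and SgreTa0004419 followed each other closely and fell in pleuropodia between days 5 and 6. SgreTa0002638 (3528 bases) stood at 163, 117, 6.18, 0.297, 0.0395, 0.560, 0.00848, 0, 0.0174 and 0.0330 RPKM in pleuropodia, against 148, 98.6, 71.0, 17.9, 4.93, 15.3, 5.36, 4.81, 0.442 and 0.290 RPKM in legs. SgreTa0004419 (2391 bases) stood at 275, 194, 9.32, 0.475, 0.116, 0.110, 0.0250, 0.0365, 0.0256 and 0 RPKM in pleuropodia, against 277, 195, 121, 29.9, 8.92, 10.3, 10.1, 7.06, 0.796 and 0.442 RPKM in legs. The tissues were within 1.19-fold at days 4 and 5, and at day 6 pleuropodia kept 4.42% and 3.98% of the early mean of these transcripts, where legs kept 57.6% and 51.4%. Legs then held a low level up to day 11 that was lost at day 12.

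SgreTa0006657 (740 bases, the shortest) and SgreTb0008089 also fell at day 6 in pleuropodia. SgreTa0006657 stood at 38.2, 37.9, 3.86, 0.197, 0.0376 and then 0 RPKM in pleuropodia, and at 28.8, 29.8, 13.4, 2.82, 0.295, 0.0969, 0.0373, 0.0747, 0 and 0 RPKM in legs. No read of it was found in the last 5 libraries of pleuropodia, where 3 reads would be 0.118 to 0.267 RPKM. SgreTb0008089 kept a low level, at 1.78 to 4.46 RPKM in pleuropodia and 4.78 to 11.4 RPKM in legs from day 8-9 onward.

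The remaining members had courses with steps down and up between the early and the late days. The steps up given in this paragraph lay between day 8 and day 8-9, whose libraries came from the other sequencing centre. Of the 13, 7 in pleuropodia and 10 in legs stood higher at day 8-9 than at day 8. The share of all transcripts that did so was not counted, so these counts show nothing particular to the 13. The part of the centre in these steps was not tested. SgreTa0003478 differed little between the tissues, with 39.1, 26.1, 15.1 and 26.1 RPKM in pleuropodia at days 6, 7, 8 and 8-9, against 29.9, 22.3, 19.1 and 25.3 RPKM in legs. SgreTa0007741 held 358 RPKM in pleuropodia at day 6, against 300.4 RPKM in legs, and then 49.4, 13.7 and 38.5 RPKM in pleuropodia at days 7, 8 and 8-9, against 175, 62.3 and 97.7 RPKM in legs. SgreTa0003416 stood at 46.0, 24.3, 15.7 and 3.94 RPKM in pleuropodia over these stages, against 76.4, 49.2, 24.4 and 40.3 RPKM in legs. Over these stages, day 6 included, the tissues overlapped for each of these transcripts. Over days 7 to 8-9 alone only SgreTa0003478 still overlapped in unscaled RPKM. SgreTa0003416 was separated narrowly, with at most 24.27 RPKM in pleuropodia and at least 24.36 RPKM in legs. On TMM-scaled RPKM SgreTa0003416 overlapped too, with up to 21.9 RPKM in pleuropodia and down to 19.5 RPKM in legs. On each single day from 7 to 8-9 pleuropodia were the lower tissue for SgreTa0007741 and SgreTa0003416.

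SgreTa0013753 was lower in pleuropodia up to day 6 and higher on days 7, 8 and 8-9. It stood at 145, 64.8 and 29.3 RPKM in pleuropodia at days 4, 5 and 6, against 349, 189 and 92.3 RPKM in legs, and at 48.9, 40.7 and 49.6 RPKM in pleuropodia at days 7, 8 and 8-9, against 41.1, 26.9 and 42.5 RPKM in legs. It was the only one of the 13 that was higher at day 7 than at day 6 in pleuropodia.

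The days between those used by the rule allow a test of the tissues. The libraries of days 7, 8 and 8-9 (3 per tissue, treated as replicates although they differ in age) were compared with limma on log2(RPKM + 0.5) after TMM scaling, and p-values were adjusted by Benjamini-Hochberg over the 10850 transcripts tested. Since these libraries are of different days and pooled tissue, the p-values measure only the spread among them. Of the 13, 12 passed the filter of at least 1 RPKM in 3 libraries, and SgreTa0006657 did not. SgreTa0002638 and SgreTa0004419 passed it through legs alone, so the filter itself required a difference of them. Their part in the counts and the median of the 12, here and with day as a block, is no support. Apart from them, only SgreTa0013144 and SgreTa0004621 were called lower and only SgreTa0013753 higher. In pleuropodia 4 of the 12 were lower, where 21.1% of all tested transcripts were lower, and 1 was higher, where 25.6% were higher. The median log2 fold change of the 12 was -1.20, beside -0.02 over all transcripts, and 10 of the 12 were below 0. Without the filter 4 of the 13 were lower and 1 was higher, with a median of -1.10.

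SgreTa0013144 was lower in pleuropodia with a log2 fold change of -3.99 ± 0.37 (SE, limma adjusted p = 0.00027). SgreTa0004419 stood at -4.06 ± 0.48 and SgreTa0002638 at -3.63 ± 0.52 in the fit without the filter (limma adjusted p = 0.00098 and 0.0022). The folds of these 2 depend on the pseudocount, at -5.28 and -4.78 with 0.1 and -3.35 and -2.98 with 1, whereas SgreTa0013144 stayed at -4.00 and -3.98, so the order of the 3 is not given. The levels of the 3 transcripts did not overlap between the tissues at days 7 to 8-9, and pleuropodia were lower on each of the 3 days. For SgreTa0002638 and SgreTa0004419, passing the filter through legs alone already required this. The unscaled levels of SgreTa0004621, SgreTa0007741 and SgreTa0003416 were separated in the same way, for SgreTa0003416 only narrowly. On TMM-scaled RPKM the levels of SgreTa0003416 overlapped. The share of all transcripts separated in this way was not counted, so the separations are given as a description only. SgreTa0004621 was lower by a smaller step, at -0.67 ± 0.16 (limma adjusted p = 0.012), also on each day, and without both libraries of day 8-9 it no longer passed although the fold stayed at -0.65 (limma adjusted p = 0.060). With day 6 added it was -0.41 (limma adjusted p = 0.36, and 0.19 with day as a block).

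SgreTa0013753 was higher in pleuropodia at 0.66 ± 0.20 on the log2 scale (limma adjusted p = 0.033), on each of the 3 days. Its unscaled levels overlapped between the tissues. On the TMM-scaled RPKM of the test they did not, with at least 44.0 RPKM in pleuropodia and at most 34.8 RPKM in legs. The call was lost with library totals in place of TMM (0.35, limma adjusted p = 0.19), without day 8-9 (limma adjusted p = 0.055) and when any single library other than the leg library of day 8-9 was left out. SgreTa0007741, at -1.45 ± 0.51, missed the threshold (limma adjusted p = 0.055). SgreTa0016713, at -1.45 ± 1.78, had the widest error (limma adjusted p = 0.53), and without both libraries of day 8-9 it was lower in pleuropodia at -3.45 (limma adjusted p = 0.040).

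**Figure D4:**
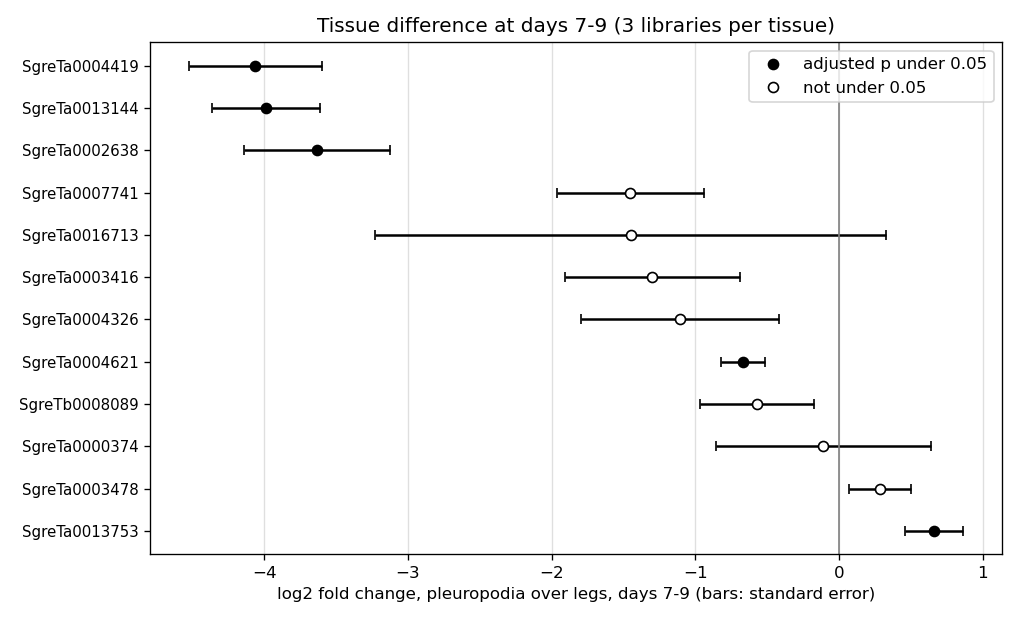
Log2 fold change of pleuropodia over legs at days 7 to 8-9 for the 12 transcripts tested (points) with its standard error (bars), filled where the limma adjusted p was under 0.05, 3 libraries per tissue. SgreTa0004419, SgreTa0013144 and SgreTa0002638 lie between -4.06 and -3.63 (SgreTa0004419 and SgreTa0002638 passed the filter through legs alone), and SgreTa0013753 at 0.66 is the only filled point above 0.

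Libraries of the same day deviated together in the 2 tissues, and with day as a block 7 of the 12 were lower in pleuropodia, beside 33.1% of all transcripts, and 2 were higher, beside 33.7%. The 7 include SgreTa0002638 and SgreTa0004419, which passed the filter through legs alone. The block added SgreTa0007741 (limma adjusted p = 0.0017), SgreTa0004326 (-1.10, limma adjusted p = 0.0032) and SgreTb0008089 (-0.57, limma adjusted p = 0.031) to the lower transcripts and SgreTa0003478 to the higher ones (0.28, limma adjusted p = 0.047). With library totals in place of TMM the median of all log2 fold changes moved to -0.32. The calls higher in pleuropodia were then 37.6% of all calls, against 54.8% with TMM, and the value of SgreTa0003478 turned to -0.02.

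Single days were also compared, with no test. At day 7, 10 of the 13 were 2-fold or more lower in pleuropodia, where 18.8% of all transcripts with at least 1 RPKM in either tissue were so, and 0 were 2-fold higher (18.4% of all). Among the 12 with at least 1 RPKM at day 8, 6 were 2-fold or more lower (29% of all) and 0 were 2-fold higher (16.2% of all). Of 11 at day 8-9, 7 were lower (25.2% of all), and SgreTa0016713 alone was higher (17.6% of all).

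Day 13 was not used by the rule. At that day 12 of the 13 were at 25% or less of their lowest early level in pleuropodia and 12 in legs. On TMM-scaled RPKM these were 11 in pleuropodia and 10 in legs. The share of other transcripts at this level was not counted. As the rule chose the 13 for low levels up to the day before, the counts are a description only. The exception in pleuropodia was SgreTa0003416, which stood at 24.1 RPKM after 0.335, 8.25 and 4.58 RPKM at days 10, 11 and 12, or 46.8% of its lowest early level (111% on TMM-scaled RPKM). SgreTa0007741 also came back in pleuropodia, at 21.0 RPKM after 5.44, 3.25 and 6.76 RPKM, a 3.10-fold step over the highest of these days.

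The exception in legs was SgreTa0004326, which stood at 55.2 RPKM at day 13, or 50.8% of its lowest early level (113% on TMM-scaled RPKM), after 1.05, 1.15 and 16.9 RPKM at days 10, 11 and 12. In pleuropodia its level at day 13 was 0.195 RPKM, 283 times lower. Of the 8 with at least 1 RPKM in either tissue at day 13, 3 were 2-fold or more lower in pleuropodia (28.5% of all) and 2 were 2-fold or more higher (21.1% of all).

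Over the 10 libraries that the rule did not use (days 6, 7, 8, 8-9 and 13 of both tissues) the Pearson correlation of log2(RPKM + 0.5) across the 78 pairs had a median of 0.64 and ran from 0.12, for SgreTa0003416 and SgreTa0016713, to 0.98, for SgreTa0002638 and SgreTa0004419. These points share libraries and age. Transcript lengths ran from 740 to 6262 bases with a median of 1522, beside 1744 for the whole matrix. Mean levels of days 4 and 5 spanned 38.0 to 3446 RPKM in pleuropodia and 29.3 to 876 RPKM in legs.

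The genes known for appendage patterning did not meet the rule. Ubx, a Hox gene active in the segment of the pleuropodia (SgreTf0014307), was higher in pleuropodia at days 4 and 5, at 176.5 and 188 RPKM against 59.0 and 71.7 RPKM. At days 10 to 12 it had 2.12 to 3.62 RPKM in pleuropodia, against 24.0 to 99.4 RPKM in legs. At days 7 to 8-9 it was lower in pleuropodia (log2 fold change -2.13 ± 0.25, limma adjusted p = 0.00068). Dll, which acts in the distal limb (SgreTf0013577), kept 9.92 RPKM in pleuropodia and 18.2 RPKM in legs at day 11, with a log2 fold change at days 7 to 8-9 of -1.05 ± 0.51 (limma adjusted p = 0.13). dac was lower in pleuropodia at -7.01 ± 0.17 (limma adjusted p = 2.8e-06), and abd-A was not tested for its low level. Among the 98 listed transcripts in the matrix, which also cover the secreted products of pleuropodia and proteases of moulting fluid, 23 were abundant at days 4 and 5 and 0 belonged to the 13. Of all transcripts abundant at days 4 and 5, 0.25% belonged to the 13, so 0 among 23 carries no information. Of the listed transcripts, 77 were also chosen by the study for abundance in pleuropodia at days 10 to 12, where the rule asks for low levels.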

How the data were processed

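The authors mapped 50-base reads (at day 8-9 trimmed from 75 bases with Trimmomatic) to a transcriptome assembled from embryos, with Bowtie2 2.2.5 according to the submitters' processing notes, and kept transcripts that passed HTSFilter. The deposited matrix holds RPKM, made by the authors from reads, transcript length and library size. Averages of days 10, 11 and 12 were checked against the mean columns of the authors' NOISeq table, whose log2 ratio, difference, probability and ranking columns were not used. Reads, lengths and depths were recovered from RPKM (99.9996% of values whole within 0.05 reads). Where several lengths did so the smallest was used, so lengths and reads could be too low by a whole factor. Intervals and limits of 3 reads cover counting error only. The reads of day 8-9 were sequenced in pairs and counted by the authors as single reads, so intervals at that stage can be too narrow.

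The rule was applied to unscaled RPKM. Levels of 20 libraries (10 stages) were compared as described. limma 3.58.1 in R 4.3.3 was fitted to log2(RPKM + 0.5) after TMM scaling (30% of ratios and 5% of abundances trimmed), with transcripts called at an adjusted p under 0.05, and the script was tested on simulated data. Python 3.11.15 with pandas 2.3.3 did the rest. Libraries of the same day correlated in their residuals at 0.431 (day 7), 0.449 (day 8) and 0.699 (day 8-9), each above the limit set for pairing, so values with day as a block are given. Groups came from the sample titles.

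Members and gene lists were chosen with earlier results of these data known. The naming rule covered named members, Ubx, abd-A, Dll, dac, the 2 strongest calls in each direction with 1 direction on all days, and the most abundant member of each order of fall. The other members were named after their values were seen, because they make up the set.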

Additional observations from a re-analysis of the deposited data

Results flagged for a closer look

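SgreTa0013144 changed in opposite directions in the 2 tissues between days 4-5 and days 7 to 8-9. Each library of days 7 to 8-9 was below both early libraries in pleuropodia, where the mean was 0.277 times the early mean, and above both in legs, where it was 3.62 times the early mean. The difference of the log2 changes, pleuropodia minus legs, was -3.71, and it was not tested.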

How the results depend on the processing

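The number of lower transcripts at days 7 to 8-9, 4 in the main fit, was 3 to 5 under every setting except the day block. That block gave 7 (and 2 higher, with 3591 of all transcripts lower in place of 2293). The transcripts behind the number changed. Without both day 8-9 libraries SgreTa0016713 was called in place of SgreTa0004621, and with blocked days 6 to 9 SgreTb0008089 was. Only SgreTa0013144, SgreTa0002638 and SgreTa0004419 were lower throughout, and the last 2 passed the main filter through legs alone. The 1 higher transcript became 0 with library totals, without both day 8-9 libraries and with the 4 libraries per tissue of days 6 to 9, and leaving out single libraries gave 0 to 1. With days 6 to 9, with or without the block (the blocked form chosen after seeing the data), SgreTa0000374 moved to 2.38 and SgreTa0004326 to 0.57 on the log2 scale, with limma adjusted p of 0.34 to 0.83. Library totals turned SgreTa0003478 to -0.022. Leaving out single libraries gave -0.84 to 0.45 for SgreTa0000374 and -3.59 to 0.26 for SgreTa0016713. Of 180 values of single transcripts under alternatives, 149 kept their direction and their side of the threshold, 12 lost the call, 10 gained one and 9 changed sign. The cause was not tested.

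Counting a fall at 75% in place of 50% gave 1 transcript earlier in pleuropodia, 10 at the same stage and 2 later. With the interpolated day, chosen after seeing the data, 2 were within 0.5 days. An early minimum of 5 RPKM gave 22 transcripts by the rule, and leaving out single libraries 13 to 23. Each stage rests on 1 library, and 43 of the 260 levels rest on 10 or fewer reads, 31 of them in pleuropodia and 12 in legs.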
